A study of Mus musculus with 8 samples.

Results

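The effect of a high fat diet (HFD) on liver RNA was estimated across wild-type and MLL4 het-labelled mice together, in an additive model of genotype and diet. All 8 libraries of the series entered it, 4 HFD against 4 chow. Every mouse was of the C57 Black strain and spent 8 weeks, from an age of 8 weeks, on its diet. Libraries 1 and 2 were wild-type on chow, 3 and 4 MLL4 het on chow, 5 and 6 wild-type on HFD, and 7 and 8 MLL4 het on HFD. The series compares how the diet changes the liver transcriptome with and without a full dose of MLL4, a histone methyltransferase of enhancers encoded by Kmt2d. The additive model asks a different question, namely which genes differ between the diets once a constant genotype difference has been taken out. The labels used here do not give the allele, the sex of the mice, the fat content of the diet, the hour or feeding state at which livers were taken, or whether a library holds RNA of 1 mouse. So p-values here rest on library-to-library spread alone, and that spread may be technical.

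Hepatocytes take up dietary fat, and they also make fatty acids from sugar. The second route runs through glycolysis and acetyl-CoA and is switched on by the transcription factors SREBP-1c (from Srebf1) and ChREBP (from Mlxipl). Cholesterol synthesis is governed by the related factor SREBP-2 (from Srebf2), which is held back in the endoplasmic reticulum when sterols are plentiful. Fat that is neither burned nor exported in lipoproteins is stored as triglyceride in lipid droplets, and a high fat diet is a standard way to fill them. The same cells make most plasma proteins, degrade drugs with cytochrome P450 and conjugating enzymes, and run a circadian clock that follows feeding.

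Total counts ranged from 14142884 to 18928676 a library, and levels are given as CPM, counts per 1e+06 counts of the library after TMM scaling. The 2 libraries of each group were not 1 library deposited again, with a chi-square of 15.8 to 17.3 per degree of freedom, and each counted as a sample. Albumin took 4.53% to 6.24% of the counts, as in liver. Of 12 hepatocyte markers 11 matched a row, and all 11 passed the low-count filter. Kmt2d itself, listed as Mll2, stood at 61.2 and 69.6 CPM in wild-type and 59.9 and 72.02 in het-labelled livers on chow, and 63.3 and 64.6 against 62.7 and 75.3 on HFD, an order kept below (wild-type before het-labelled on each diet). Its level did not follow the genotype label, so those libraries are called het-labelled, and it had no diet difference past the test (log2 change 0.02 ± 0.09, edgeR adjusted p = 0.933). In a principal component analysis the first component (37.5% of the variance) separated the diets and the second (22.2%) the genotypes. The third (14.2%) had library 8 at one end (28.6) and library 3 at the other (-20.6), and counts without these libraries are given below. Red-cell RNA differed with the diet, since haemoglobin rows took 0.0138% to 0.0206% of counts on chow and 0.0276% to 0.0699% on HFD. In liver tissue, fewer cells of a type and less RNA per cell cannot be told apart.

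Across both genotypes, 1252 of 12593 tested genes (9.94%) differed between the diets at an edgeR adjusted p under 0.05, of which 681 (5.41% of all tested) were higher and 571 (4.53%) lower on HFD. Counts of called list members below are to be set against these shares of 5.41% and 4.53%. Most changes were modest. The median fold of the called genes was 1.45 and the smallest 1.15, and 269 (2.14% of all tested) changed by 2-fold or more, 144 upward and 125 downward. A change of 4-fold or more was reached by 52 higher and 33 lower genes. For 940 called genes (7.46% of all tested) the 4 HFD and the 4 chow libraries did not overlap, while 312 called genes overlapped. Over all tested genes the libraries did not overlap in 13.1%, with HFD above chow in 7.19% and below in 5.88%. The median log2 change of all tested genes was 0.007, so changes are given without a shift. Leaving out library 1, 2, 6 or 7 lowered the count to 659, 701, 712 or 716, and leaving out both 3 and 8 raised it to 1976. Of the called genes, 526 (42.0%) were called whichever library was left out, 24 were called in no such fit, and 0 turned direction.

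**Figure D1:**
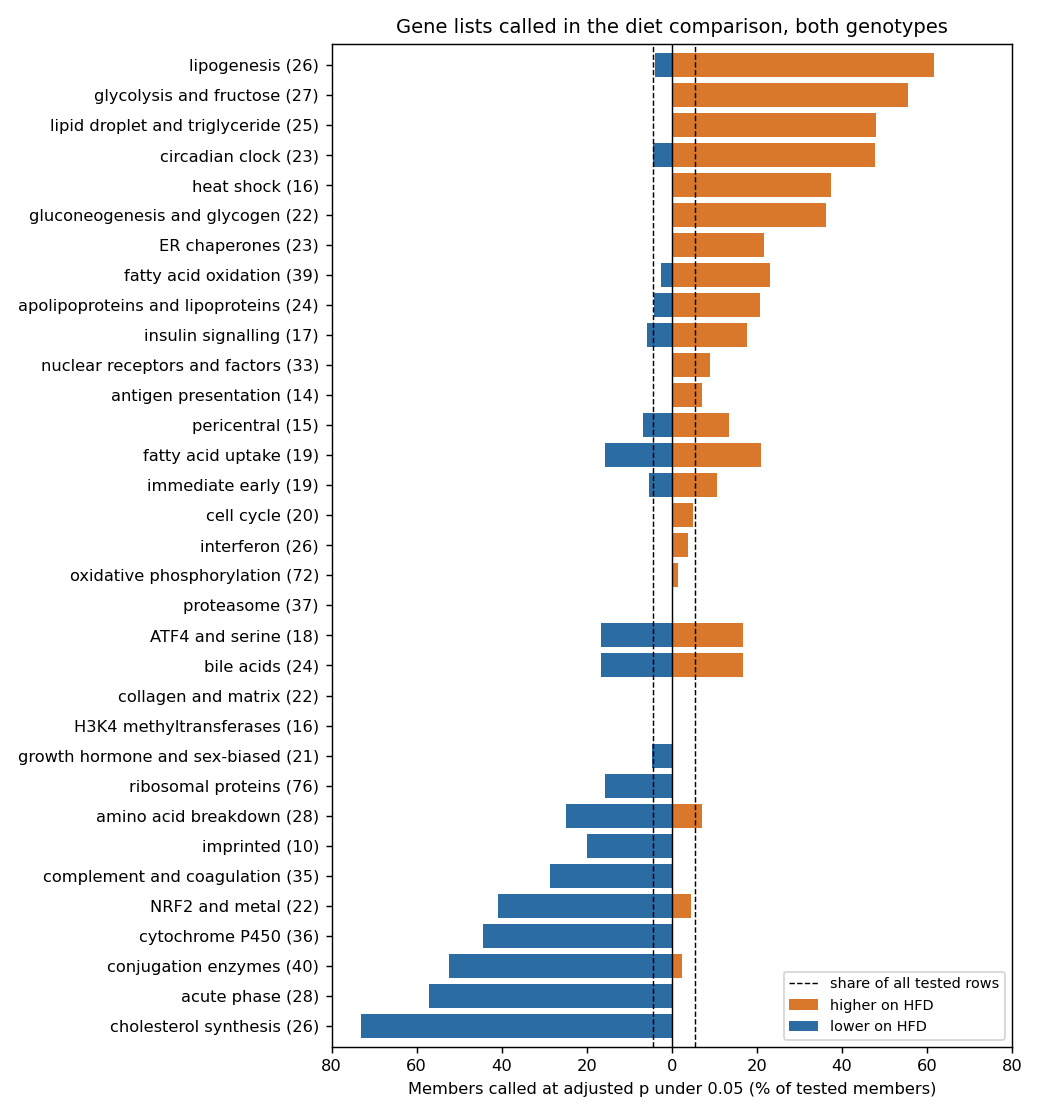
Share of the tested members of each gene list that were called at an edgeR adjusted p under 0.05 in the diet comparison over both genotypes, to the right for higher and to the left for lower on HFD, with the number of tested members in brackets. Dashed lines mark the shares over all tested genes, 5.41% higher and 4.53% lower; lipogenesis, sugar breakdown, lipid droplet and clock lists reach furthest to the right and cholesterol synthesis, acute phase and conjugation lists furthest to the left.

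Most genes that turn sugar into fatty acids were higher on HFD. Of 26 tested genes of fatty acid synthesis, 16 rose and 1 fell, and the median log2 change of the list was 0.98 (1.23 in wild-type and 0.71 in het-labelled livers). Fasn, the fatty acid synthase, stood at 217 and 335 CPM in wild-type and 295 and 179.9 in het-labelled livers on chow, and 1507 and 1555 against 1184 and 761 on HFD (log2 change 2.25 ± 0.21, edgeR adjusted p = 0.000446). Every HFD library lay above every chow library, with het-labelled library 8 the lowest of the 4. Scd1, the main hepatic desaturase, stood at 4120 and 8051 CPM in wild-type and 6556 and 3438 in het-labelled livers on chow, and 33376 and 25184 against 21765 and 20201 on HFD (log2 change 2.17 ± 0.25, edgeR adjusted p = 0.000908). Its diets did not overlap either. Srebf1 showed 114 and 208 CPM in wild-type and 215 and 125 in het-labelled livers on chow, and 549.9 and 880.5 against 908 and 562 on HFD (log2 change 2.13 ± 0.26, edgeR adjusted p = 0.00108). Here library 5 and library 8 were the lower of each HFD pair, still above all chow libraries. Thrsp, a nuclear protein that promotes lipogenesis, spanned 30.7 to 177 CPM on chow and 328 to 711 CPM on HFD (log2 change 2.75 ± 0.29, edgeR adjusted p = 0.000775). Pnpla3, a lipase-like protein of lipid droplets that is itself switched on by SREBP-1c, had the largest change of the list, from 0.315 to 0.811 CPM on chow and 15.2 to 46.3 CPM on HFD (log2 change 5.38 ± 0.42, edgeR adjusted p = 0.000179). The cytosolic carboxylation and elongation steps rose less, with Acaca, the acetyl-CoA carboxylase, at a log2 change of 0.97 (edgeR adjusted p = 0.0053), Acly, which makes cytosolic acetyl-CoA from citrate, at 0.83 (edgeR adjusted p = 0.00233), and the elongase Elovl6 at 1.67 (edgeR adjusted p = 0.0008903). The single member that fell was Acss2, which makes acetyl-CoA from acetate (log2 change -0.84, edgeR adjusted p = 0.0396). Citrate carrier Slc25a1 had a log2 change of -0.01 without passing the test (edgeR adjusted p = 0.937). The call of Acss2 (without any 1 of libraries 2, 4, 6 and 7, without the genotype term or as the mean of both genotypes in a model of group means) was lost in those fits (largest adjusted p 0.142, edgeR unless another tool is named).

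Many genes of sugar uptake and breakdown rose alongside. Of 27 tested genes of glycolysis and fructose metabolism, 15 rose and 0 fell (median log2 change 0.34). Pklr, the liver pyruvate kinase and a standard ChREBP target, stood at 87.3 and 98.7 CPM in wild-type and 95.9 and 74.7 in het-labelled livers on chow, and 421 and 475 against 340.3 and 375 on HFD (log2 change 2.17 ± 0.10, edgeR adjusted p = 5.54e-06). Its libraries formed 2 tight blocks with no overlap, and its log2 change was similar in wild-type (2.27) and het-labelled livers (2.07). The fructose enzymes moved together, with ketohexokinase Khk at 238 to 285 CPM on chow and 463 to 623 CPM on HFD (log2 change 1.03 ± 0.08, edgeR adjusted p = 0.000173) and triokinase Tkfc, listed as Dak, at 226 to 256 CPM on chow and 442 to 673 CPM on HFD (log2 change 1.13 ± 0.11, edgeR adjusted p = 0.000462). The sugar carriers Slc2a2 and Slc2a5 had log2 changes of 0.81 and 0.95 (edgeR adjusted p = 0.00102 and 0.00423). Ldha, lactate dehydrogenase, went from 513 to 565 CPM on chow and 786 to 910.4 CPM on HFD (log2 change 0.66 ± 0.06, edgeR adjusted p = 0.000444). The shared glycolytic genes Tpi1, Pgk1 and Pgam1 had log2 changes of 0.01, -0.08 and -0.003 without passing the test (edgeR adjusted p = 0.968, 0.456 and 0.983).

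A part of the glycogen and glucose output genes rose too. Of 22 tested genes, 8 rose and 0 fell (median log2 change 0.24). The 4 with the smallest adjusted p were Slc37a4, the glucose-6-phosphate carrier (74.9 to 95.3 CPM on chow and 129 to 161 CPM on HFD, log2 change 0.77 ± 0.09, edgeR adjusted p = 0.000916), Gys2, liver glycogen synthase (78.9 to 116 CPM on chow and 134 to 159 CPM on HFD, log2 change 0.59 ± 0.07, edgeR adjusted p = 0.000977), Ugp2, which makes UDP-glucose (278 to 306 CPM on chow and 398 to 478 CPM on HFD, log2 change 0.59 ± 0.07, edgeR adjusted p = 0.00117), and Pygl, liver glycogen phosphorylase (344 to 449 CPM on chow and 546 to 677 CPM on HFD, log2 change 0.61 ± 0.09, edgeR adjusted p = 0.00309). Among these 4, RNA of the glycogen-building Gys2 and Ugp2 and of the glycogen-degrading Pygl was therefore higher by similar amounts. G6pc, glucose-6-phosphatase, had a log2 change of 0.67 (edgeR adjusted p = 0.0223). Pck1, the cytosolic enzyme that commits carbon to gluconeogenesis, spanned 1390 to 2507 CPM on chow and 1536 to 1882 CPM on HFD without passing the test (log2 change -0.14 ± 0.11, edgeR adjusted p = 0.489). The call of G6pc (without any 1 of libraries 2, 4, 6 and 7) was lost in those fits (largest adjusted p 0.0741, edgeR unless another tool is named).

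A part of the lipid storage genes rose on HFD, with wide spread between libraries. Of 25 tested genes of lipid droplets and triglyceride turnover, 12 rose and 0 fell, and the median log2 change was 0.32, whether Cidea enters at its fitted value or at its lower bound. Cidea, which fuses lipid droplets, had 0, 0, 0 and 0 counts in the 4 chow libraries and 145, 22, 4 and 1 in HFD libraries 5 to 8. Set against a floor of 3 counts a library on chow, its mean on HFD was at least 12.6-fold higher (edgeR adjusted p = 0.0311), with most of its counts in library 5. The Cidea row passed the low-count filter through HFD libraries, so a rise was the only direction open to it. G0s2, an inhibitor of the main triglyceride lipase, stood at 20.2 and 15.6 CPM in wild-type and 12.7 and 8.297 in het-labelled livers on chow, and 122 and 91.9 against 124 and 40.9 on HFD (log2 change 2.77 ± 0.32, edgeR adjusted p = 0.000908). All HFD libraries exceeded all chow libraries, with library 8 the lowest on HFD. Mgll, monoacylglycerol lipase, was tighter, at 94.3 to 111 CPM on chow and 211 to 306 CPM on HFD (log2 change 1.32 ± 0.11, edgeR adjusted p = 0.000234). Of the enzymes that assemble triglyceride, Agpat2 spanned 96.8 to 129.97 CPM on chow and 132 to 229 CPM on HFD (log2 change 0.64 ± 0.10, edgeR adjusted p = 0.00525) and Dgat2 251 to 349 CPM on chow and 399.9 to 476 CPM on HFD (log2 change 0.60 ± 0.09, edgeR adjusted p = 0.00336). The droplet coat gene Plin2 stood at 474 and 378 CPM in wild-type and 315 and 335 in het-labelled livers on chow, and 762 and 675 against 443 and 405 on HFD (log2 change 0.57 ± 0.10, edgeR adjusted p = 0.00818). Its het-labelled HFD libraries lay within the range of the wild-type chow libraries. Cidec, a relative of Cidea, showed 2.52 and 3.48 CPM in wild-type and 1.13 and 2.31 in het-labelled livers on chow, and 28.7 and 13.7 against 3.43 and 1.99 on HFD (log2 change 2.08 ± 0.46, edgeR adjusted p = 0.02001), with high values in libraries 5 and 6 and a het-labelled HFD pair that overlapped chow. Pparg, a driver of droplet genes, stood at 9.32 to 11.3 CPM on chow and 11.02 to 16.8 CPM on HFD without passing the test (log2 change 0.36 ± 0.11, edgeR adjusted p = 0.0668). The number of risen droplet genes was 6 without library 2, 7 without library 1 and 4 without the genotype term. The calls of Cidea (without library 1/2/7, without the genotype term or as the mean of both genotypes in a model of group means), Plin2 (without the genotype term) and Cidec (without library 1/2 or without the genotype term) were lost in those fits (largest adjusted p 0.166, edgeR unless another tool is named). A call was gained for Pparg (without library 6), with an adjusted p of 0.0468 (edgeR unless another tool is named).

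Pnpla5, a further patatin-like lipase, was counted 0, 1, 0 and 0 times in the chow libraries and 87, 43, 24 and 31 times in the HFD libraries (edgeR adjusted p = 0.000464), so it was close to absent on chow and present in every HFD library. The Pnpla5 row passed the low-count filter through HFD libraries, so a rise was the only direction open to it. Uptake and binding genes were split, since of 19 tested 4 rose and 3 fell. Mfsd2a, a carrier of lysophosphatidylcholine, had the smallest adjusted p of all tested genes. It stood at 12.5 and 13.7 CPM in wild-type and 5.74 and 7.34 in het-labelled livers on chow, and 130.3 and 141 against 81.2 and 85.9 on HFD (log2 change 3.51 ± 0.10, edgeR adjusted p = 1.56e-07). Fabp2, the intestinal-type fatty acid binding protein, came next, at 46.2 and 46.9 CPM in wild-type and 35.6 and 33.1 in het-labelled livers on chow, and 183 and 176 against 162 and 129 on HFD (log2 change 2.01 ± 0.08, edgeR adjusted p = 2.99e-06). Both genes had SEs of 0.10 or less, and in both the lowest HFD library was more than 2-fold above the highest chow library. Fabp1, the abundant liver-type binding protein, spanned 2932 to 3142 CPM on chow and 3789 to 4633 CPM on HFD (log2 change 0.43 ± 0.07, edgeR adjusted p = 0.00701). The mitochondrial medium-chain acyl-CoA synthetase Acsm5 fell by 0.30 on the log2 scale, from between 144 and 158 to between 121 and 125 CPM (edgeR adjusted p = 0.00863). Cd36, a fatty acid translocase often studied in fatty liver, had a log2 change of 0.26 without passing the test (edgeR adjusted p = 0.729). Fallen uptake genes numbered 1 without library 1/2/6, 1 without the genotype term and 5 with no filter on low counts.

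A part of the fatty acid oxidation genes rose. Of 39 tested, 9 rose and 1 fell (median log2 change 0.16). The peroxisomal thiolase Acaa1b spanned 969.7 to 1365 CPM on chow and 1397 to 2580 CPM on HFD (log2 change 0.88 ± 0.12, edgeR adjusted p = 0.00196), and its near copy Acaa1a 242 to 335 CPM on chow and 328 to 521 CPM on HFD (log2 change 0.57 ± 0.09, edgeR adjusted p = 0.00423), although reads of such copies may be shared. Aldh3a2, a fatty aldehyde dehydrogenase, stood at 336 and 376 CPM in wild-type and 294 and 297 in het-labelled livers on chow, and 849 and 767 against 648 and 347 on HFD (log2 change 0.97 ± 0.17, edgeR adjusted p = 0.00818). Library 8 was within the chow range and the other HFD libraries were above it. Fgf21, a hormone released by liver under metabolic stress, was low throughout, at 0.116 to 0.544 CPM on chow and 1.07 to 1.67 CPM on HFD (log2 change 2.37 ± 0.40, edgeR adjusted p = 0.00573). The Fgf21 row passed the low-count filter through HFD libraries, so a rise was the only direction open to it. The factor Ppara, which drives oxidation genes in liver, had a log2 change of 0.77 (edgeR adjusted p = 0.0155). The gate of mitochondrial entry, Cpt1a, had 0.37 without passing the test (edgeR adjusted p = 0.0748). Among omega-hydroxylases Cyp4a14 showed 309 and 224 CPM in wild-type and 149 and 724 in het-labelled livers on chow, and 263 and 197 against 36.2 and 47.4 on HFD without passing the test (log2 change -1.77 ± 0.71, edgeR adjusted p = 0.162). Its het-labelled HFD pair was low and chow library 4 was high. The single member that fell was its relative Cyp4a32 (log2 change -1.16, edgeR adjusted p = 0.0264). Risen oxidation genes numbered 4 without library 2, 14 without libraries 3 and 8 together and 5 without the genotype term. The calls of Acaa1a (without the genotype term), Ppara (without library 2/4/5) and Cyp4a32 (without library 1/6/7 or without the genotype term) were lost in those fits (largest adjusted p 0.0904, edgeR unless another tool is named). Calls were gained for Cpt1a (with DESeq2) and Cyp4a14 (as the mean of both genotypes in a model of group means), with adjusted p from 0.0262 to 0.0334 (edgeR unless another tool is named).

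Lipoprotein genes changed in a few members. Of 24 tested, 5 rose and 1 fell. Apoa4, an apolipoprotein of triglyceride-rich particles, stood at 31.5 and 34.8 CPM in wild-type and 99.5 and 42.9 in het-labelled livers on chow, and 1159 and 723 against 471 and 427 on HFD (log2 change 3.73 ± 0.47, edgeR adjusted p = 0.00135). It was high in all HFD libraries, and library 3 was the highest on chow. The wild-type and het-labelled log2 changes were 4.83 and 2.66 (edgeR adjusted p of the interaction = 0.58). Apoc2, the activator of lipoprotein lipase, spanned 94.9 to 106 CPM on chow and 157 to 268 CPM on HFD (log2 change 1.04 ± 0.12, edgeR adjusted p = 0.0008903), and Mttp, which loads lipid onto apolipoprotein B, 239 to 269.8 CPM on chow and 298 to 398 CPM on HFD (log2 change 0.41 ± 0.07, edgeR adjusted p = 0.00813). Angptl8, listed as Gm6484 and an inhibitor of lipoprotein lipase, had a log2 change of 1.56 (edgeR adjusted p = 0.0125). Apom, carried on high density lipoprotein, fell to 85.6 to 106 CPM on HFD from 153 to 183 CPM on chow (log2 change -0.80 ± 0.08, edgeR adjusted p = 0.000481). Apob, the scaffold of very low density lipoprotein, had a log2 change of -0.13 without passing the test (edgeR adjusted p = 0.484).

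Most cholesterol synthesis genes fell on HFD. Of 26 tested genes, 19 fell and 0 rose, with a median log2 change of -0.94 (-0.99 in wild-type and -0.85 in het-labelled livers). The promoters of 3 called members are shown because these genes fell together, as RefSeq sequence of build GRCm38.p6 (not the build of the counts) running 5′ to 3′ over the 250 bases before the annotated start. They are Msmo1 (chr8:64733579-64733828, minus strand), Hmgcs1 (chr13:119690101-119690350, plus strand) and Idi1 (chr13:8885356-8885605, plus strand). Capitals mark CCAAT on either strand, where it reads ATTGG on the strand shown, and TCACNCCAC, a sterol element-like motif.
Msmo1: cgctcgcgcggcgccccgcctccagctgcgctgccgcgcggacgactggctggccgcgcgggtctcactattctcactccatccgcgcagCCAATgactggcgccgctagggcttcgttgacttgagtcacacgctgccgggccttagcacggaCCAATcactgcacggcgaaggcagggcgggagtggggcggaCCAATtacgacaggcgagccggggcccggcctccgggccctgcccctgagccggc
Hmgcs1: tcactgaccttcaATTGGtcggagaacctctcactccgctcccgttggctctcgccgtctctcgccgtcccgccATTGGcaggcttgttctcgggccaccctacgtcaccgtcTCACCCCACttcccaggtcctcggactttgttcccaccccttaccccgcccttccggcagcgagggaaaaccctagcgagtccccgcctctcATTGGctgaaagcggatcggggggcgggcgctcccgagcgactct
Idi1: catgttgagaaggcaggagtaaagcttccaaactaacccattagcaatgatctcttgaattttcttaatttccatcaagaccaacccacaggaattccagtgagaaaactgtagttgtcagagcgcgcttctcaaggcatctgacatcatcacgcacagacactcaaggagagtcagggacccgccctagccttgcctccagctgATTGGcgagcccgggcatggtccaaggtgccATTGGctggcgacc
Of the tested members, 18 of 26 matched an entry, and 16 of these 18 promoters (88.9%) held CCAAT against 34.5% of the 27025 promoters in the table. Among the 15 called members with an entry it was in 13 (86.7%), and the 3 that were not called all held it. The sterol element-like motif was in 1 of 18 (5.56%) against 1.04% of all. A match describes letters, not a bound site.

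Sqle, squalene epoxidase, fell the most of the list and stood at 67.4 and 79.4 CPM in wild-type and 56.9 and 59.8 in het-labelled livers on chow, and 10.2 and 3.55 against 2.31 and 5.402 on HFD (log2 change -3.67 ± 0.30, edgeR adjusted p = 0.000213). The highest HFD library, 5, still lay far below the lowest chow library. Msmo1, the sterol methyl oxidase listed as Sc4mol, stood at 189 and 230.04 CPM in wild-type and 124 and 162 in het-labelled livers on chow, and 56.99 and 31.1 against 26.97 and 36.3 on HFD (log2 change -2.22 ± 0.19, edgeR adjusted p = 0.000234). Hmgcs1, which makes HMG-CoA, stood at 483 and 615 CPM in wild-type and 311 and 404 in het-labelled livers on chow, and 253 and 186 against 106 and 130.1 on HFD (log2 change -1.46 ± 0.14, edgeR adjusted p = 0.000462). Idi1, the isopentenyl isomerase, spanned 239 to 315 CPM on chow and 24.02 to 57.8 CPM on HFD (log2 change -2.76 ± 0.28, edgeR adjusted p = 0.000511). For these 4 genes the diets did not overlap, and het-labelled chow libraries were below wild-type chow libraries. Further down the pathway the log2 change was -1.64 for the squalene synthase Fdft1, -2.10 for the demethylase Cyp51 and -1.88 for the sterol dehydrogenase Nsdhl (edgeR adjusted p = 0.0008, 0.00123 and 0.0008). Srebf2 itself fell by 0.64 on the log2 scale (edgeR adjusted p = 0.0016), in contrast to the rise of Srebf1 above. Insig1, which retains SREBPs, had a log2 change of -0.13 without passing the test (edgeR adjusted p = 0.597). With DESeq2, with no low-count filter, without library 8 and without libraries 3 and 8, 1 member of the list was called higher.

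**Figure D2:**
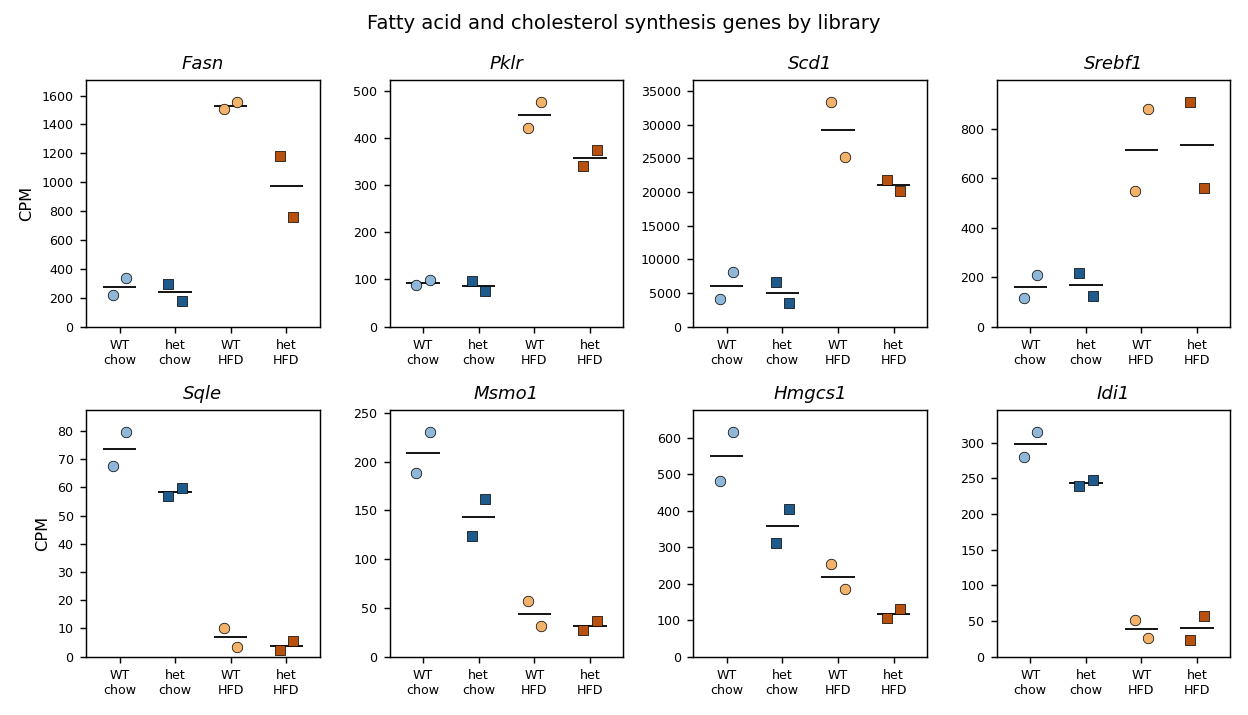
Expression in CPM of 4 genes of fatty acid synthesis and sugar breakdown (top) and 4 of cholesterol synthesis (bottom) in each of the 8 libraries, as circles for wild-type and squares for het-labelled livers, with a bar at the mean of each pair. All 4 HFD libraries lie above all 4 chow libraries in the top row and below them in the bottom row.

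Genes of bile acids and sterol export were split. Of 24 tested genes of bile acid synthesis, transport and control, a list that includes the sterol exporters, 4 rose and 4 fell. The exporters Abcg5 and Abcg8 were among those that rose. Abcg5 and Abcg8, whose proteins pair to pump sterols into bile, stood at 67.7 to 86.7 CPM on chow and 150.02 to 313 CPM on HFD and at 88.2 to 111 CPM on chow and 149 to 301 CPM on HFD (log2 change 1.68 ± 0.20, edgeR adjusted p = 0.00104, and log2 change 1.29 ± 0.20, edgeR adjusted p = 0.00381). Library 5 was the lowest on HFD for both genes. Slc10a1, the carrier that takes bile acids up from blood, spanned 440.4 to 489 CPM on chow and 558 to 616 CPM on HFD (log2 change 0.36 ± 0.06, edgeR adjusted p = 0.00605). The oxysterol-hydroxylating Cyp7b1 fell to 123 to 239.8 CPM from 314 to 466 CPM (log2 change -1.25 ± 0.16, edgeR adjusted p = 0.00132). Cyp7a1, which sets the rate of the classical bile acid pathway, had no change past the test, at 48.8 and 57.5 CPM in wild-type and 63.6 and 56.6 in het-labelled livers on chow, and 29.8 and 25.3 against 112 and 71.6 on HFD (log2 change -0.15 ± 0.29, edgeR adjusted p = 0.806). Its wild-type HFD pair was below chow and its het-labelled HFD pair above, with log2 changes of -0.95 and 0.61 (edgeR adjusted p of the interaction = 0.367). Fallen bile acid genes numbered 2 without library 1/2/6.

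A part of the drug-metabolizing enzymes fell on HFD. Of 36 tested genes of the drug-metabolizing cytochrome P450 families and their regulators, 16 fell and 0 rose (median log2 change -0.38). The list had a median log2 change of -0.53 in wild-type and -0.50 in het-labelled livers. An unadjusted edgeR interaction p under 0.05 was found for 12 of the 36, against 7.15% of all tested genes, and 0 passed adjustment. Cyp2b10, induced by drugs through the receptor CAR, stood at 22.98 and 23.6 CPM in wild-type and 25.1 and 20.1 in het-labelled livers on chow, and 2.88 and 3.11 against 0.375 and 0.498 on HFD (log2 change -3.80 ± 0.37, edgeR adjusted p = 0.000481). All HFD libraries were below all chow libraries, and the het-labelled pair was the lower. Cyp2c55 spanned 12.5 to 23.4 CPM on chow and 2.04 to 4.21 CPM on HFD (log2 change -2.42 ± 0.12, edgeR adjusted p = 1.10e-05), and Cyp2c29 2264 to 2917 CPM on chow and 1290 to 1524 CPM on HFD (log2 change -0.84 ± 0.09, edgeR adjusted p = 0.0008). Cyp1a2, which metabolizes caffeine, stood at 816 and 778 CPM in wild-type and 571 and 657 in het-labelled livers on chow, and 299 and 301 against 354 and 342 on HFD (log2 change -1.11 ± 0.12, edgeR adjusted p = 0.000595). Of the Cyp3a family, Cyp3a11, Cyp3a16, Cyp3a44 and Cyp3a59 fell, with log2 changes of -1.62, -1.72, -1.74 and -1.32 (edgeR adjusted p = 0.001504, 0.00764, 0.00132 and 0.0119). The receptors that switch these genes on were not called, with a log2 change of -0.16 for Nr1i3 (CAR), 0.16 for Nr1i2 (PXR) and -0.17 for Ahr (edgeR adjusted p = 0.651, 0.3699 and 0.488). Cyp2e1, an ethanol-metabolizing member, had -0.01 without passing the test (edgeR adjusted p = 0.973). Outside this list Cyp2d40 rose, at 40.1 to 48.6 CPM on chow and 86.9 to 115 CPM on HFD (log2 change 1.20 ± 0.08, edgeR adjusted p = 5.79e-05). Counts of close relatives such as the Cyp2c and Cyp3a genes may share reads. With DESeq2, without library 8 and without libraries 3 and 8, 1 member was called higher.

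Conjugating enzymes that were called went mostly the same way. Of 40 tested, 21 fell and 1 rose (median log2 change -0.41). Glutathione transferase Gstm1 stood at 1757 and 1864 CPM in wild-type and 1697 and 1741 in het-labelled livers on chow, and 719.7 and 650.4 against 688 and 893 on HFD (log2 change -1.26 ± 0.10, edgeR adjusted p = 0.000179). Gstm3 spanned 93.9 to 185 CPM on chow and 20.97 to 35.99 CPM on HFD (log2 change -2.14 ± 0.16, edgeR adjusted p = 0.000157), Gsta2 17.1 to 34.8 CPM on chow and 5.52 to 7.98 CPM on HFD (log2 change -1.95 ± 0.12, edgeR adjusted p = 5.79e-05) and Gsta4 58.5 to 64.3 CPM on chow and 22.4 to 32.9 CPM on HFD (log2 change -1.14 ± 0.10, edgeR adjusted p = 0.0003199), all without overlap. The member that rose was Gstz1, an enzyme of tyrosine breakdown (log2 change 0.30, edgeR adjusted p = 0.0219). Of 22 genes of the NRF2 response and of metal handling, 9 fell and 1 rose. Slc39a4, a zinc importer, stood at 64.1 and 57.4 CPM in wild-type and 36.1 and 28.8 in het-labelled livers on chow, and 16.4 and 15.3 against 2.52 and 1.99 on HFD (log2 change -2.63 ± 0.31, edgeR adjusted p = 0.000916). The metal-binding protein gene Mt1 spanned 2.62 to 26.4 CPM on chow and 1.45 to 2.54 CPM on HFD (log2 change -2.86 ± 0.46, edgeR adjusted p = 0.00478), with chow library 3 close to the HFD libraries, and Mt2 0.921 to 6.86 CPM on chow and 0.284 to 1.27 CPM on HFD (log2 change -2.22 ± 0.37, edgeR adjusted p = 0.00601), with overlap. Nfe2l2, which encodes NRF2, was the member that rose, at 46.4 to 63.6 CPM on chow and 68.2 to 113 CPM on HFD (log2 change 0.81 ± 0.12, edgeR adjusted p = 0.0034), while its target Nqo1 fell by 0.71 on the log2 scale (edgeR adjusted p = 0.0441). Fallen genes of this list numbered 5 without library 1/2/6 and 3 without the genotype term. The calls of Gstz1 (without any 1 of libraries 1, 4, 5, 6 and 7 or without the genotype term), Mt2 (without the genotype term) and Nqo1 (without any 1 of libraries 1, 2, 3, 6 and 7, without the genotype term or as the mean of both genotypes in a model of group means) were lost in those fits (largest adjusted p 0.143, edgeR unless another tool is named).

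Many genes of the acute phase fell on HFD, most of them for plasma proteins that hepatocytes secrete in inflammation. Of 28 tested, 16 fell and 0 rose (median log2 change -0.39; -0.45 in wild-type and -0.41 in het-labelled livers). Saa3, a serum amyloid A, stood at 8.56 and 7.53 CPM in wild-type and 8.36 and 9.25 in het-labelled livers on chow, and 2.13 and 1.42 against 2.52 and 2.91 on HFD (log2 change -1.93 ± 0.16, edgeR adjusted p = 0.000234). Orosomucoids Orm1 and Orm2 spanned 579 to 661 CPM on chow and 322 to 397 CPM on HFD and 22.9 to 28.1 CPM on chow and 12.2 to 15.7 CPM on HFD (log2 change -0.78 ± 0.08, edgeR adjusted p = 0.000778, and log2 change -0.92 ± 0.09, edgeR adjusted p = 0.000481). Hemopexin, Hpx, which binds free heme, went from 2933 to 3256 CPM on chow and 1987 to 2201 CPM on HFD (log2 change -0.56 ± 0.07, edgeR adjusted p = 0.00129). The fibrinogen chains Fga, Fgb and Fgg had log2 changes of -0.51, -0.44 and -0.44 (edgeR adjusted p = 0.00488, 0.00692 and 0.01505). The 16 include genes of the signal that induces these proteins, Il6ra, the interleukin-6 receptor, and Stat3 (log2 change -0.80 and -0.40, edgeR adjusted p = 0.0373 and 0.0286). Serpina3n, Lcn2 and Socs3 had log2 changes of 0.11, -0.26 and -0.11 without passing the test (edgeR adjusted p = 0.496, 0.714 and 0.873). The calls of Fgg (without library 1), Il6ra (without any 1 of libraries 1, 2, 4, 5, 6 and 8 or without the genotype term) and Stat3 (without any 1 of libraries 1, 2, 4, 6 and 7) were lost in those fits (largest adjusted p 0.123, edgeR unless another tool is named).

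Of 35 complement and coagulation genes, 10 fell and 0 rose. C3, the central complement protein, stood at 6839 and 5480 CPM in wild-type and 6576 and 6613 in het-labelled livers on chow, and 2654 and 2954 against 3624 and 3731 on HFD (log2 change -0.99 ± 0.10, edgeR adjusted p = 0.000511). Hc, which encodes complement C5, spanned 995 to 1302 CPM on chow and 673 to 904 CPM on HFD (log2 change -0.53 ± 0.06, edgeR adjusted p = 0.00102) and the regulator Cfi 438 to 481 CPM on chow and 341 to 371 CPM on HFD (log2 change -0.38 ± 0.06, edgeR adjusted p = 0.00423). C8b, of the membrane attack complex, spanned 339.7 to 444 CPM on chow and 160.2 to 281 CPM on HFD (log2 change -0.87 ± 0.16, edgeR adjusted p = 0.00934). Of the clotting factors in the list F10 was called (log2 change -0.30, edgeR adjusted p = 0.0339), together with the anticoagulant protein S gene Pros1 (log2 change -0.42, edgeR adjusted p = 0.00934). Among 21 growth hormone and sex-biased genes, 1 fell (4.76%, near the 4.53% of all tested genes). It was Serpina1e, an alpha-1-antitrypsin, at 10208 and 9229 CPM in wild-type and 9612 and 9858 in het-labelled livers on chow, and 1830 and 3266 against 4526 and 4810 on HFD (log2 change -1.50 ± 0.21, edgeR adjusted p = 0.00249). Its 8 libraries did not overlap between the diets, and the wild-type pair was the lower on HFD. Fallen genes of that list numbered 2 without library 6, 3 without library 4, 4 without library 3, 10 without library 8, 10 without libraries 3 and 8 together, 6 with DESeq2, 7 with no filter on low counts and 7 as the mean of both genotypes in a model of group means. Fallen complement and coagulation genes numbered 6 without library 6 and 6 without the genotype term. The call of F10 (without any 1 of libraries 1, 2, 4, 5, 6 and 7 or without the genotype term) was lost in those fits (largest adjusted p 0.108, edgeR unless another tool is named).

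A part of the circadian clock genes rose on HFD. Of 23 tested clock and clock output genes, 11 rose and 1 fell, with a median log2 change of 0.67 (0.33 in wild-type and 1.04 in het-labelled livers). Promoters of 3 called members that changed together are shown in the same way as above. They are Dbp (chr7:45704997-45705246, plus strand), Per3 (chr4:151044666-151044915, minus strand) and Tef (chr15:81802423-81802672, plus strand). Capitals here mark the E-box CACGTG, bound by CLOCK and its partner, and the D-box TTATGTAA, bound by the DBP family.
Dbp: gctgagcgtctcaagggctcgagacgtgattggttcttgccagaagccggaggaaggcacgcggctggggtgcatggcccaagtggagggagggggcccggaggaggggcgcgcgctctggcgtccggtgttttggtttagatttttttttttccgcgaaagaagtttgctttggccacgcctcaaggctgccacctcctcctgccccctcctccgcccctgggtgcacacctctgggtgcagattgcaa
Per3: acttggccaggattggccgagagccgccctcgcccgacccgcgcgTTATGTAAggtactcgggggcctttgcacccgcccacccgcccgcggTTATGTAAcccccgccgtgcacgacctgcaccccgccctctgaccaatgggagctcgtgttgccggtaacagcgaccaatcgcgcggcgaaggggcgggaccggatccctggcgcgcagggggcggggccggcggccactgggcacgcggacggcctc
Tef: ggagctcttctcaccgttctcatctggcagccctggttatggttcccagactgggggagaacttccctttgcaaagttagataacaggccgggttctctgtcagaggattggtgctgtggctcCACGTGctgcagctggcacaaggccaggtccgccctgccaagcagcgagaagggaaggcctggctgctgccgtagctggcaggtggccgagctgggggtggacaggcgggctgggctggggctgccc
Per3 held the D-box at 2 places, Tef held 1 E-box, and neither motif was in the 250 bases of Dbp. Of the tested members, 18 of 23 matched an entry. The E-box was in 5 of these 18 (27.8%) against 6.05% of all 27025 promoters, and the D-box in 1 of 18 (5.56%) against 0.862%. Among the 9 called members with an entry the E-box was in 2 (22.2%), so 3 of the 5 promoters with it belong to members that were not called.

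Dbp, a clock output factor, stood at 0.504 and 0.927 CPM in wild-type and 0.354 and 0.408 in het-labelled livers on chow, and 13.1 and 2.896 against 16.4 and 11.02 on HFD (log2 change 4.20 ± 0.56, edgeR adjusted p = 0.00186). Wild-type library 6 was far lower than the other HFD libraries and still above all chow libraries. The Dbp row passed the low-count filter through HFD libraries, so a rise was the only direction open to it. Per2, a repressor of the clock, stood at 6.67 and 7.301 CPM in wild-type and 10.2 and 4.96 in het-labelled livers on chow, and 26.2 and 29.6 against 37.7 and 28.01 on HFD (log2 change 2.06 ± 0.19, edgeR adjusted p = 0.000325). Bhlhe40, a repressor that also responds to feeding, stood at 44.02 and 72.9 CPM in wild-type and 32.4 and 25.2 in het-labelled livers on chow, and 177 and 208 against 177 and 132 on HFD (log2 change 2.06 ± 0.20, edgeR adjusted p = 0.000481). Neither overlapped between the diets, and their log2 changes in the 2 genotypes were 1.99 and 2.12 for Per2 and 1.72 and 2.42 for Bhlhe40. Per3 spanned 1.02 to 2.55 CPM on chow and 3.498 to 16.03 CPM on HFD (log2 change 2.40 ± 0.42, edgeR adjusted p = 0.00764), with log2 changes of 1.52 in wild-type and 3.39 in het-labelled livers. Tef, a relative of Dbp, had a log2 change of 1.38 (edgeR adjusted p = 0.00851), and Ciart, listed as Gm129 and a clock repressor, 1.76 (edgeR adjusted p = 0.01104). The single member that fell was Clock, a core activator (log2 change -0.34, edgeR adjusted p = 0.0317). Its partners Arntl and Npas2 had -0.63 and -0.78 without passing the test (edgeR adjusted p = 0.0892 and 0.224), and Cry1, a core repressor, had 0.005 (edgeR adjusted p = 0.989). Risen clock genes numbered 6 without library 1/4, 7 without library 7 and 7 without the genotype term. The calls of Ciart (without library 1) and Clock (without any 1 of libraries 2, 6, 7 and 8) were lost in those fits (largest adjusted p 0.0952, edgeR unless another tool is named). Calls were gained for Arntl (without library 6, as the mean of both genotypes in a model of group means, with no low-count filter or with DESeq2) and Npas2 (without library 6), with adjusted p from 0.0171 to 0.04904 (edgeR unless another tool is named).

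Rgs16, a regulator of G protein signalling that is not in the clock list, stood at 2.02 and 1.796 CPM in wild-type and 1.63 and 2.52 in het-labelled livers on chow, and 34.7 and 12.9 against 37.3 and 13.4 on HFD (log2 change 3.63 ± 0.43, edgeR adjusted p = 0.00103). Libraries 5 and 7 were above 34 CPM and libraries 6 and 8 below 14 CPM. Immediate early genes, which respond within minutes to signals or handling, had few calls. Of 19 tested, 2 rose and 1 fell, and the median log2 change was -0.06 in wild-type and 1.33 in het-labelled livers. Fos, a growth-signal factor, stood at 0.882 and 1.16 CPM in wild-type and 0.85 and 3.88 in het-labelled livers on chow, and 1.62 and 1.26 against 12.01 and 80.3 on HFD (log2 change 3.31 ± 0.91, edgeR adjusted p = 0.0488). The high values were in the het-labelled HFD pair, and library 8 was the highest. Dusp1, a phosphatase of stress kinases, was more even, at 14.9 to 35.3 CPM on chow and 54.7 to 73.6 CPM on HFD (log2 change 1.39 ± 0.23, edgeR adjusted p = 0.00542). Klf6 fell, at 6.67 to 9.997 CPM on chow and 5.33 to 6.01 CPM on HFD (log2 change -0.57 ± 0.12, edgeR adjusted p = 0.0178). The calls of Fos (without any 1 of libraries 1, 2, 3, 4, 5, 6 and 8, without the genotype term, as the mean of both genotypes in a model of group means, with upper-quartile factors, with a filter at a mean of 1 CPM, with DESeq2 or with limma-voom) and Klf6 (without library 2/7) were lost in those fits (largest adjusted p 0.173, edgeR unless another tool is named).

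**Figure D3:**
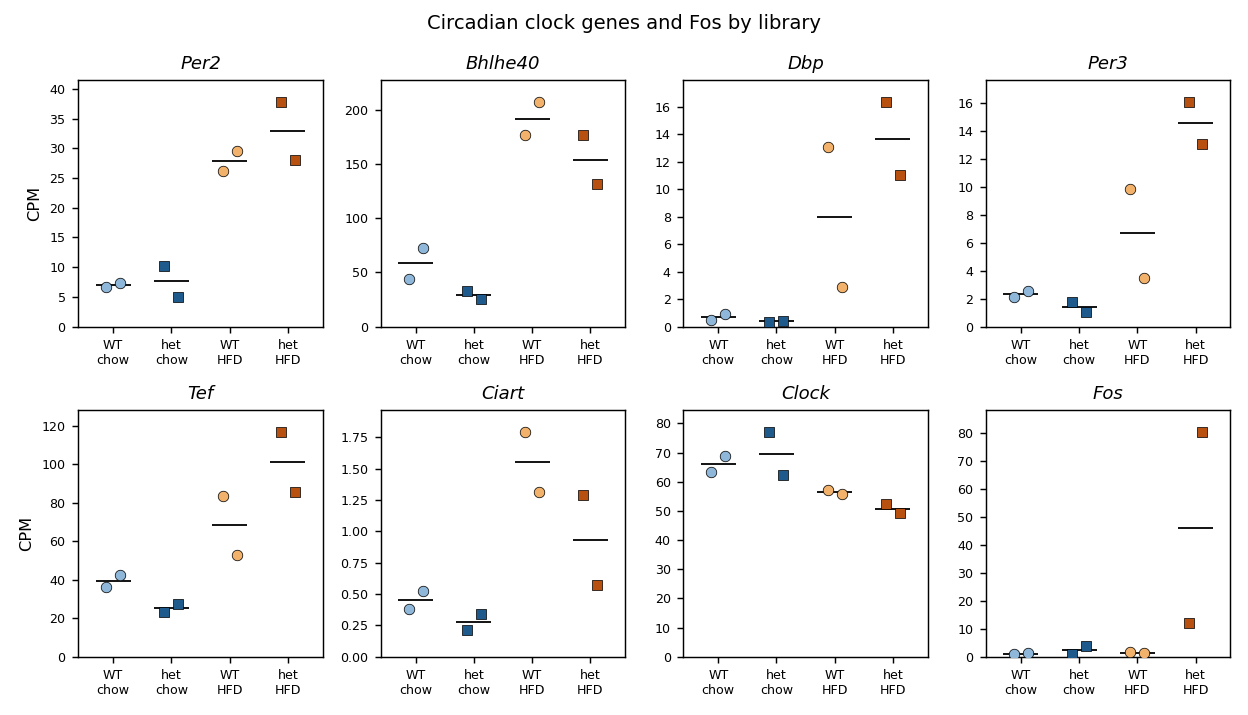
Expression in CPM of 7 clock genes and of Fos in each of the 8 libraries, as circles for wild-type and squares for het-labelled livers, with a bar at the mean of each pair. The first 6 clock genes are higher in all HFD libraries than in any chow library and Clock is lower, whereas Fos is high in the het-labelled HFD pair alone, at 12.01 and 80.3 CPM.

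Protein folding genes rose in part. Of 16 heat shock genes, 6 rose and 0 fell (median log2 change 0.62; 0.29 in wild-type and 0.71 in het-labelled livers). Hspa8, the constitutive chaperone, stood at 995 and 803 CPM in wild-type and 1224 and 802 in het-labelled livers on chow, and 1377 and 1289 against 1531 and 1751 on HFD (log2 change 0.63 ± 0.13, edgeR adjusted p = 0.0148), with chow library 3 the closest to HFD. Dnaja1, a co-chaperone counted in 1 row with a microRNA, spanned 172 to 265 CPM on chow and 272 to 382 CPM on HFD (log2 change 0.61 ± 0.13, edgeR adjusted p = 0.0149). Hsp90aa1 had 165 and 133 CPM in wild-type and 221 and 139 in het-labelled livers on chow, and 253 and 211 against 276 and 459.96 on HFD (log2 change 0.83 ± 0.19, edgeR adjusted p = 0.0244), with library 8 the highest. Of 23 genes of the endoplasmic reticulum, 5 rose and 0 fell. Hspa5, its main chaperone, stood at 641 and 560.4 CPM in wild-type and 872 and 505 in het-labelled livers on chow, and 1012 and 939 against 1014 and 932 on HFD (log2 change 0.60 ± 0.15, edgeR adjusted p = 0.03201), and Syvn1, a ubiquitin ligase, spanned 78.7 to 119 CPM on chow and 117 to 139.8 CPM on HFD (log2 change 0.53 ± 0.10, edgeR adjusted p = 0.0114). Library 3 was the highest chow library for Hspa5, Syvn1, Hspa8 and Hsp90aa1. Risen heat shock genes numbered 1 without library 2/5 and 2 without the genotype term. Risen reticulum genes numbered 1 without any 1 of libraries 1, 2, 4, 5, 6 and 7, 8 without library 8, 12 without library 3, 16 without libraries 3 and 8 together, 2 without the genotype term, 8 with DESeq2 and 8 with no filter on low counts. The calls of Hspa8 (without library 2), Dnaja1 (without library 5), Hsp90aa1 (without library 2/4/5 or without the genotype term) and Hspa5 (without any 1 of libraries 1, 2, 4, 5, 6 and 7) were lost in those fits (largest adjusted p 0.102, edgeR unless another tool is named).

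Amino acid genes were split. Of 18 genes of the ATF4 response and serine synthesis, 3 rose and 3 fell. Asns, asparagine synthetase, fell at 5.73 and 7.53 CPM in wild-type and 1.84 and 1.56 in het-labelled livers on chow, and 0.577 and 0.383 against 0.429 and 0.498 on HFD (log2 change -3.05 ± 0.35, edgeR adjusted p = 0.0008903), and the wild-type chow pair was by far the highest. The Asns row passed the low-count filter through chow libraries, so a fall was the only direction open to it. Cth, which makes cysteine, spanned 436 to 666 CPM on chow and 241 to 333 CPM on HFD (log2 change -0.97 ± 0.08, edgeR adjusted p = 0.000234). Atf5, a stress factor, rose at 224 to 266 CPM on chow and 320.2 to 387 CPM on HFD (log2 change 0.50 ± 0.06, edgeR adjusted p = 0.0008203), and so did Shmt1, a serine hydroxymethyltransferase, at 118 to 142 CPM on chow and 159.7 to 239.6 CPM on HFD (log2 change 0.60 ± 0.11, edgeR adjusted p = 0.00879). Of 28 genes of amino acid breakdown and the urea cycle, 7 fell and 2 rose. Hal, which degrades histidine, spanned 329 to 395 CPM on chow and 197 to 264 CPM on HFD (log2 change -0.66 ± 0.09, edgeR adjusted p = 0.00248), and Ass1, a urea cycle enzyme in a row merged with Gm5424, 2649 to 3451 CPM on chow and 2007 to 2266 CPM on HFD (log2 change -0.51 ± 0.08, edgeR adjusted p = 0.004899). Cps1, the first urea cycle enzyme, stood at 3204 to 3675 CPM on chow and 2070 to 2904 CPM on HFD (log2 change -0.43 ± 0.11, edgeR adjusted p = 0.0368). Outside these lists Acmsd, which diverts tryptophan carbon from NAD synthesis, fell, at 23.5 to 28.4 CPM on chow and 9.81 to 12.5 CPM on HFD (log2 change -1.16 ± 0.08, edgeR adjusted p = 0.000157). Fallen breakdown genes numbered 3 without library 1/2/6, 4 without library 5/7 and 3 without the genotype term. Risen ones numbered 0 without any 1 of libraries 1, 4, 5, 6 and 7, 1 without library 2 and 0 without the genotype term. The call of Cps1 (without any 1 of libraries 1, 2, 5 and 6 or without the genotype term) was lost in those fits (largest adjusted p 0.107, edgeR unless another tool is named).

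Signalling genes with a large change included 2 secreted factors. Inhbe, a liver-derived activin subunit, stood at 18.1 and 17.4 CPM in wild-type and 22.2 and 17.3 in het-labelled livers on chow, and 96.6 and 78.9 against 91.8 and 38.2 on HFD (log2 change 2.02 ± 0.25, edgeR adjusted p = 0.00131). Enho, which encodes adropin, stood at 13.6 and 11.9 CPM in wild-type and 7.01 and 11.7 in het-labelled livers on chow, and 0.577 and 1.04 against 0.912 and 2.63 on HFD (log2 change -3.16 ± 0.37, edgeR adjusted p = 0.000916). Diets did not overlap for either gene, and library 8 was the HFD library closest to chow for both. Both secreted factors were counted in the list of 17 insulin signalling genes, of which 3 rose and 1 fell. Inhbe was among those that rose, and Enho was the member that fell. Irs2, an adaptor of the insulin receptor, had a log2 change of -0.85 without passing the test (edgeR adjusted p = 0.102). Pik3r1 and Sik1 rose (log2 change 0.58, edgeR adjusted p = 0.0189, and log2 change 0.93, edgeR adjusted p = 0.03201). Imprinted noncoding RNAs of 1 cluster fell, with Rian at 7.75 and 6.03 CPM in wild-type and 5.95 and 10.3 in het-labelled livers on chow, and 0.577 and 0.219 against 1.39 and 0.6397 on HFD (log2 change -3.40 ± 0.34, edgeR adjusted p = 0.000494) and the merged row of Meg3 at 22.7 and 17.4 CPM in wild-type and 12.3 and 30.1 in het-labelled livers on chow, and 1.73 and 1.53 against 3.32 and 1.42 on HFD (log2 change -3.35 ± 0.33, edgeR adjusted p = 0.000481). The other 8 tested imprinted genes did not pass. Risen genes of the insulin signalling list, with Inhbe counted, numbered 1 without any 1 of libraries 1, 2, 4 and 6 and 1 without the genotype term. The calls of Pik3r1 (without any 1 of libraries 1, 2, 4 and 6 or without the genotype term) and Sik1 (without any 1 of libraries 1, 2, 4, 6 and 7 or without the genotype term) were lost in those fits (largest adjusted p 0.1597, edgeR unless another tool is named). Calls were gained for Irs2 (without library 6 or with no low-count filter), with adjusted p from 0.0266 to 0.04596 (edgeR unless another tool is named).

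Several of the largest changes were in genes outside the lists described so far. Stap1, an adaptor of B-cell signalling, spanned 0.0579 to 0.212 CPM on chow and 0.711 to 4.15 CPM on HFD (log2 change 3.96 ± 0.49, edgeR adjusted p = 0.00131), and Atp2b2, a plasma membrane calcium pump, 0.406 to 0.819 CPM on chow and 1.14 to 6.28 CPM on HFD (log2 change 2.45 ± 0.37, edgeR adjusted p = 0.00368). Hcn3, a cation channel, was tighter, at 4.16 and 4.52 CPM in wild-type and 1.98 and 2.72 in het-labelled livers on chow, and 25.8 and 28.7 against 23.2 and 28.6 on HFD (log2 change 2.997 ± 0.17, edgeR adjusted p = 2.75e-05). Dntt, a lymphocyte DNA polymerase, spanned 0.136 to 0.695 CPM on chow and 0.912 to 4.903 CPM on HFD (log2 change 2.81 ± 0.49, edgeR adjusted p = 0.00707), and the predicted gene Gm19619 0.272 to 1.62 CPM on chow and 3.696 to 11.6 CPM on HFD (log2 change 2.73 ± 0.35, edgeR adjusted p = 0.001498). Nr4a2, an orphan nuclear receptor, spanned 0.204 to 0.695 CPM on chow and 1.66 to 3.06 CPM on HFD (log2 change 2.51 ± 0.35, edgeR adjusted p = 0.00227). Of these 6 genes Hcn3 stood above 20 CPM on HFD, and the others were below 12 CPM in every library. The Stap1 row passed the low-count filter through HFD libraries, so a rise was the only direction open to it. Among those that fell, Vtcn1, a T-cell inhibitory ligand, was counted 29, 56, 24 and 26 times in the chow libraries and 2, 2, 1 and 0 times in the HFD libraries (edgeR adjusted p = 0.0003199). Clec2h, a C-type lectin, spanned 8.57 to 24.9 CPM on chow and 0.858 to 3.41 CPM on HFD (log2 change -3.22 ± 0.39, edgeR adjusted p = 0.00108) and the lectin Cd207 1.39 to 3.196 CPM on chow and 0.115 to 0.328 CPM on HFD (log2 change -3.18 ± 0.31, edgeR adjusted p = 0.000464). Gpr110, an adhesion receptor, stood at 26.95 and 15.3 CPM in wild-type and 24.4 and 20.7 in het-labelled livers on chow, and 1.38 and 1.04 against 3.11 and 11.1 on HFD (log2 change -2.64 ± 0.50, edgeR adjusted p = 0.0101), with library 8 well above the other HFD libraries. Tuba8, a tubulin, spanned 1.27 to 4.53 CPM on chow and 0.142 to 0.519 CPM on HFD (log2 change -3.11 ± 0.34, edgeR adjusted p = 0.000778) and the dicarboxylate carrier Slc13a2 1.77 to 7.65 CPM on chow and 0.161 to 1.15 CPM on HFD (log2 change -2.88 ± 0.33, edgeR adjusted p = 0.000916). The Vtcn1, Cd207 and Tuba8 rows passed the low-count filter through chow libraries, so a fall was the only direction open to them. Pnpla7, a lysophospholipase, rose by little but evenly, at 105 to 128 CPM on chow and 169.7 to 211 CPM on HFD (log2 change 0.73 ± 0.05, edgeR adjusted p = 0.000157). Aqp4, a water channel, overlapped between the diets, at 2.83 and 3.71 CPM in wild-type and 0.425 and 0.612 in het-labelled livers on chow, and 14.9 and 14.5 against 1.77 and 1.85 on HFD (log2 change 2.08 ± 0.15, edgeR adjusted p = 0.000157). It was higher on HFD in both genotypes and lower in het-labelled livers on both diets. The call of Aqp4 (without the genotype term) was lost in those fits (largest adjusted p 0.186, edgeR unless another tool is named).

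A part of the ribosomal protein genes fell on HFD. Of 76 cytosolic ribosomal protein genes, 12 (15.8%) fell, against 4.53% of all tested genes, and 0 rose, with log2 changes from -0.53 to 0.06 and 74 of 76 below 0. The median log2 change of this list was -0.31 in wild-type and -0.07 in het-labelled livers. An unadjusted edgeR interaction p under 0.05 was found for 12 of the 76, against 7.15% of all tested genes, and 0 passed adjustment. Rpl36a, the one with the smallest adjusted p, spanned 70.7 to 78.3 CPM on chow and 53.9 to 64.5 CPM on HFD (log2 change -0.36 ± 0.07, edgeR adjusted p = 0.0102). Fallen ribosomal genes numbered 1 without any 1 of libraries 1, 2, 6 and 7, 2 without library 5, 3 without library 4, 20 without library 8, 39 without library 3, 60 without libraries 3 and 8 together and 7 without the genotype term. Of 72 respiratory chain genes, 1 rose, Ndufa8 (log2 change 0.38, edgeR adjusted p = 0.0125), and of 37 proteasome genes 0 passed in either direction. Collagen and matrix genes (22 tested) and H3K4 methyltransferase genes (16 tested, Kmt2d among them) had 0 called members each, and the fibronectin gene Fn1 stood at 1135 to 1281 CPM on chow and 1208 to 1404 CPM on HFD (log2 change 0.04 ± 0.07, edgeR adjusted p = 0.784). In the proteasome, matrix and H3K4 lists, 4, 2 and 0 members had an unadjusted edgeR p under 0.05, and DESeq2 and limma-voom called 0 in each. In the cell cycle list 1 of 20 rose (5%), Rrm2 (log2 change 0.81, edgeR adjusted p = 0.0353), and in the interferon list 1 of 26 (3.85%), Oasl1 (log2 change 0.44, edgeR adjusted p = 0.0479). Tap1, a peptide transporter, was the single riser among 14 antigen presentation genes (7.14%, log2 change 0.59, edgeR adjusted p = 0.00551). These shares are near the 5.41% of all tested genes that rose, so the calls do not set the lists apart. The median log2 change was 0.38 in wild-type and -0.096 in het-labelled livers for interferon genes. For cell cycle genes it was 0.32 and -0.29, and for antigen presentation genes 0.03 and -0.22. An unadjusted edgeR interaction p under 0.05 was found for 9 of 26, 6 of 20 and 2 of 14 in that order. Over all tested genes that share was 7.15%, and 0 passed adjustment. Of 15 pericentral genes 2 rose, Lect2 and Rnf43, and 1 fell, Slc1a2 (log2 change 0.40, 0.49 and -0.73, edgeR adjusted p = 0.00235, 0.0334 and 0.00867). Of 33 nuclear receptors and liver factors, 3 rose, Nr4a2, Cebpa and Esrra, and Hnf4a, the main hepatocyte factor, had a log2 change of -0.21 (edgeR adjusted p = 0.0986). The calls of Ndufa8 (without library 1), Rrm2 (without any 1 of libraries 1, 2, 4, 5, 6 and 7 or without the genotype term), Oasl1 (without any 1 of libraries 1, 2, 4, 5, 6, 7 and 8, without the genotype term, as the mean of both genotypes in a model of group means, with upper-quartile factors, with RLE factors or with a filter at a mean of 1 CPM), Lect2 (without the genotype term) and Rnf43 (without any 1 of libraries 1, 2, 5, 6 and 7 or without the genotype term) were lost in those fits (largest adjusted p 0.173, edgeR unless another tool is named).

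Markers of the cell types in a liver sample were measured for the same contrast. Of 11 hepatocyte markers 2 fell, Fgb and Cps1, and Alb spanned 56437 to 61945 CPM on chow and 45554 to 50999 CPM on HFD without passing (log2 change -0.28 ± 0.10, edgeR adjusted p = 0.112). The summed level of the hepatocyte list ran from 92837 to 101100 CPM on chow and 81257 to 83518 on HFD. Of 12 Kupffer cell markers 1 fell, Marco at 4.09 and 4.64 CPM in wild-type and 9.85 and 6.73 in het-labelled livers on chow, and 0.346 and 1.69 against 5.09 and 1.14 on HFD (log2 change -1.63 ± 0.43, edgeR adjusted p = 0.04204). All 12 had negative log2 changes, with medians of -0.17 in wild-type and -1.09 in het-labelled livers. The het-labelled chow libraries 3 and 4 were the 2 highest libraries for all 12. Clec4f stood at 53.5 and 47.6 CPM in wild-type and 123 and 109.6 in het-labelled livers on chow, and 49.5 and 50.2 against 74.9 and 50.3 on HFD, and Cd5l at 36.9 and 35.3 CPM in wild-type and 141 and 103 in het-labelled livers on chow, and 39.2 and 45.4 against 72.4 and 42.4 on HFD. An unadjusted edgeR interaction p under 0.05 was found for 9 of the 12, against 7.15% of all tested genes, and 0 passed adjustment. Their summed level was 186 to 556 CPM on chow and 188 to 308 on HFD, so the diets overlapped. Fallen Kupffer markers numbered 0 without library 1/3/6, 0 without the genotype term, 6 with DESeq2, 7 with no filter on low counts and 7 as the mean of both genotypes in a model of group means. Of 10 markers of other myeloid cells 1 fell, Lyz2 (log2 change -0.95 ± 0.25, edgeR adjusted p = 0.0426), and of 5 lymphocyte markers 1 rose, Cd4, at 1.35 to 2.61 CPM on chow and 3.06 to 3.83 CPM on HFD (log2 change 0.85 ± 0.20, edgeR adjusted p = 0.0294). Endothelial (13 tested), stellate (12), cholangiocyte (5) and neutrophil (2) markers had 0 calls with edgeR. In the same order of cell types, 0, 3, 0 and 1 members had an unadjusted edgeR p under 0.05, and DESeq2 and limma-voom called 0 in each. Of 8 exocrine pancreas markers 1 was tested and not called. Red-cell markers rose in 2 of 4 tested rows, with alpha globin at 145 and 99.1 CPM in wild-type and 116 and 134 in het-labelled livers on chow, and 483 and 359 against 203 and 223 on HFD (log2 change 1.28 ± 0.21, edgeR adjusted p = 0.00565) and beta globin with log2 change 1.27, edgeR adjusted p = 0.01202. Of 7 fat-cell markers 3 passed the low-count filter and 2 rose, Cidea and Cfd, the latter at 0.504 and 0.579 CPM in wild-type and 0 and 0.06801 in het-labelled livers on chow, and 20.9 and 12.95 against 4.83 and 0.284 on HFD (log2 change 5.06 ± 0.70, edgeR adjusted p = 0.00213). Cidea was at 0 and Cfd at no more than 0.579 CPM on chow, so both passed the filter through HFD libraries. A rise was the only direction open to these rows, so their count says little. The defining fat-cell genes Adipoq and Plin1 reached at most 0.213 and 0.06297 CPM in any library and Fabp4 stood between 4.28 and 7.104 CPM. The part of red-cell, macrophage or fat-cell RNA in the other results was not tested. The calls of Hbb (without library 1), Marco (without any 1 of libraries 1, 2, 3, 4, 5, 6 and 8, without libraries 3 and 8 together, without the genotype term or with DESeq2), Lyz2 (without any 1 of libraries 1, 3, 4, 5, 6 and 7 or without the genotype term) and Cd4 (without any 1 of libraries 1, 3, 4, 5, 6 and 7) were lost in those fits (largest adjusted p 0.158, edgeR unless another tool is named). Calls were gained for Alb (with no low-count filter, with DESeq2 or with limma-voom) and Clec4f (as the mean of both genotypes in a model of group means), with adjusted p from 0.000913 to 0.0425 (edgeR unless another tool is named).

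How far the diet difference held in each genotype was examined in the model of group means. In wild-type livers 578 genes (4.59% of those tested) were called and in het-labelled livers 380 (3.02%). The genotypes share no libraries, but they share the estimate of spread. They had 212 calls in common, 36.7% of the wild-type and 55.8% of the het-labelled calls, and all 212 went the same way. Of the wild-type calls 562 (97.2%) had the same sign in het-labelled livers, and of the het-labelled calls 354 (93.2%) in wild-type livers, against 64.0% of all tested genes. Across all 12593 genes the log2 changes of the genotypes had Pearson r = 0.54 and Spearman rho = 0.39, a description over genes, which are not independent. Genes called in wild-type livers had a median change of 0.87 there and 0.56 in the same direction in het-labelled livers. In the reverse direction, genes called in het-labelled livers had a median of 0.94 there and 0.62 in wild-type livers. Each median is larger in the genotype that chose the genes. Leaving out library 1, 2, 5 or 6 took the wild-type count to 98, 130, 199 or 182, and leaving out library 3 or 4 to 896 or 888. Leaving out library 3, 4 or 7 took the het-labelled count to 241, 226 or 198, and leaving out library 1 or 2, which enter its spread, to 146 or 144.

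A difference of the diet effect between genotypes was tested directly as an interaction. The share of genes called was 0% (0 of 12593, edgeR), and 900 genes (7.15%) had an unadjusted p under 0.05. DESeq2 called 22 (429 at unadjusted p under 0.05) and limma-voom 0 (890). Without library 7 edgeR called 14. Of the 1252 genes called for the diet, 108 had an unadjusted interaction p under 0.05. The smallest p belonged to Cyp2b10, with -2.95 in wild-type and -5.69 in het-labelled livers (edgeR adjusted p of the interaction = 0.0963). Next came Slc39a4, with -1.94 in wild-type and -3.82 in het-labelled livers (edgeR adjusted p of the interaction = 0.0963). Both fell in both genotypes and lay lowest in the het-labelled HFD pair. The other 3 genes with the smallest p were not called for the diet in the additive model. Tob2, which restrains cell growth, had log2 changes of -0.03 in wild-type and 1.13 in het-labelled livers (edgeR adjusted p of the interaction = 0.1701). Kdm2b, a histone demethylase, stood at 7.997 and 8.29 CPM in wild-type and 21.7 and 18.6 in het-labelled livers on chow, and 8.48 and 8.36 against 8.74 and 8.25 on HFD (edgeR adjusted p of the interaction = 0.1701), so the het-labelled chow pair alone was high. Cd300ld, a myeloid receptor, was also high in that pair. The Kupffer cell markers given above were highest in the same 2 libraries, and their part in this was not tested. Cd300ld stood at 3.97 and 3.42 CPM in wild-type and 10.5 and 9.11 in het-labelled livers on chow, and 3.63 and 4.21 against 3.16 and 2.84 on HFD (edgeR adjusted p of the interaction = 0.186). None of these 5 passed the test, and a p that misses the threshold does not show that the genotypes respond alike. Calls were gained for Tob2 (as the mean of both genotypes in a model of group means), Kdm2b (as the mean of both genotypes in a model of group means or with DESeq2) and Cd300ld (as the mean of both genotypes in a model of group means), with adjusted p from 0.00381 to 0.04897 (edgeR unless another tool is named).

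**Figure D4:**
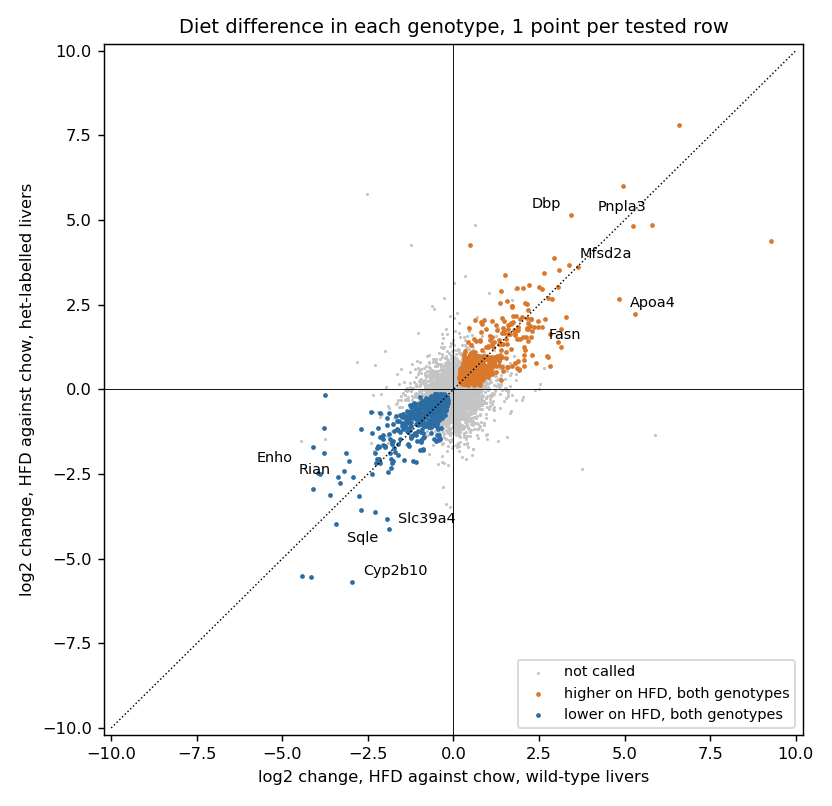
Log2 change between HFD and chow in wild-type livers (horizontal) and in het-labelled livers (vertical), 1 point for each of the 12593 tested genes, coloured where the gene was called for the diet over both genotypes, with a dotted line of equal change. Called genes lie mainly in the lower left and upper right quadrants, at varying distances from the line. Apoa4 lies below it (4.83 and 2.66) and Cyp2b10, at lower left, below it too (-2.95 and -5.69). Of the 1252 called genes, 108 had an unadjusted edgeR interaction p under 0.05.

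Taking both genotypes together brought out genes that neither passed alone. Of the 1252 called genes, 515 were also called in wild-type livers, 315 in het-labelled livers and 212 in both, which leaves 634 called in neither, 351 higher and 283 lower. Their changes were smaller than those of the other 618, with a median fold of 1.33 against 1.67, and 64 against 205 reached 2-fold. In 443 of the 634 the diets did not overlap, against 13.1% of all tested genes. The 634 were chosen for a diet difference in these same libraries, which favours such separation. All these comparisons use the same libraries, so the 634 are not further evidence. The gene with the smallest adjusted p among them was Tsc22d1, a transcription factor of the TSC22 family, at 81.5 and 91.3 CPM in wild-type and 63.9 and 90.6 in het-labelled livers on chow, and 192 and 242 against 289 and 132 on HFD (log2 change 1.39 ± 0.22, edgeR adjusted p = 0.00418), with libraries 7 and 8 far apart. Cebpa, a factor that maintains hepatocyte identity, stood at 182 and 208 CPM in wild-type and 176 and 207 in het-labelled livers on chow, and 265 and 265 against 256 and 278 on HFD (log2 change 0.46 ± 0.07, edgeR adjusted p = 0.00452). Its 4 HFD libraries lay close together, and its log2 changes were 0.44 and 0.48 in the genotypes (edgeR adjusted p = 0.0537 and 0.0527). Serinc5, a membrane protein named for serine incorporation, spanned 45.2 to 52.6 CPM on chow and 34.05 to 40.4 CPM on HFD (log2 change -0.37 ± 0.06, edgeR adjusted p = 0.00423), and Abca8b, a lipid transporter, 86.03 to 96.7 CPM on chow and 45.2 to 65.3 CPM on HFD (log2 change -0.67 ± 0.11, edgeR adjusted p = 0.00442). Sec14l2, a lipid-binding protein that stimulates squalene oxidation, rose at 568 to 697 CPM on chow and 723 to 877 CPM on HFD (log2 change 0.35 ± 0.06, edgeR adjusted p = 0.00509), opposite to Sqle. Hnmt, histamine methyltransferase, spanned 14.3 to 24.3 CPM on chow and 22.7 to 35.4 CPM on HFD (log2 change 0.59 ± 0.09, edgeR adjusted p = 0.00457) with overlap, and was lower in het-labelled livers on both diets. Neb, which encodes the muscle protein nebulin, stood at 39.7 and 45.3 CPM in wild-type and 20.1 and 47.5 in het-labelled livers on chow, and 19.03 and 16.9 against 12.2 and 12.9 on HFD (log2 change -1.34 ± 0.22, edgeR adjusted p = 0.00496), with chow library 3 close to HFD. Fam113a and Ttc23 rose and Tmem176a fell, at 13.2 to 15.4 CPM on chow and 18.8 to 21.98 CPM on HFD, 21.96 to 28.7 CPM on chow and 32.98 to 50.8 CPM on HFD and 93.1 to 112 CPM on chow and 63.1 to 85.5 CPM on HFD (edgeR adjusted p = 0.004803, 0.00487 and 0.004899). The calls of Sec14l2 (without the genotype term) and Hnmt (without the genotype term) were lost in those fits (largest adjusted p 0.0929, edgeR unless another tool is named).

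**Figure D5:**
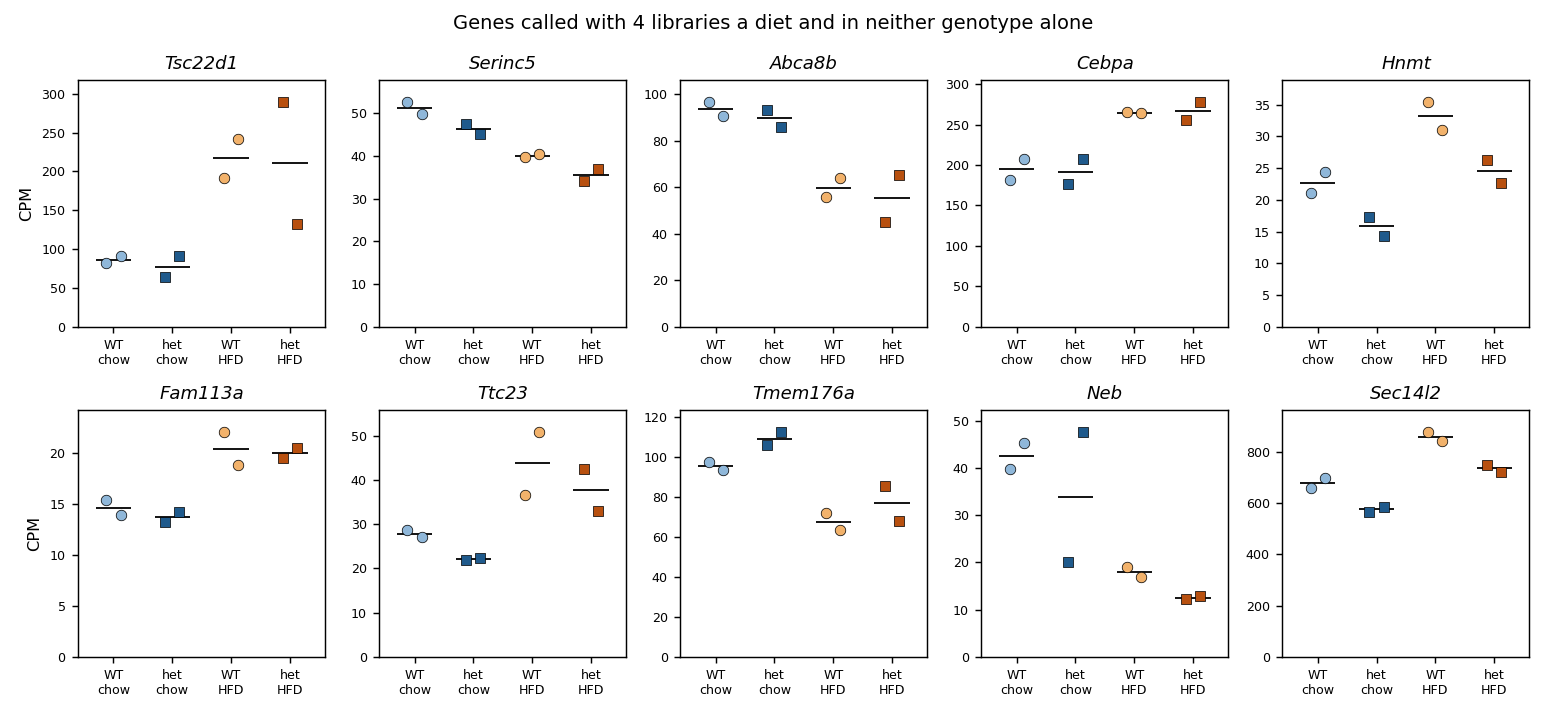
Expression in CPM of the 10 genes with the smallest adjusted p among the 634 called over both genotypes and in neither alone, in each of the 8 libraries, as circles for wild-type and squares for het-labelled livers, with a bar at the mean of each pair. For 9 of the 10, chosen by the diet test in these same libraries, the diets do not overlap. Hnmt overlaps, with het-labelled HFD library 8 at 22.7 CPM below wild-type chow library 2 at 24.3 CPM.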

How the data were processed

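Total RNA of 8 mouse livers' libraries was sequenced after TruSeq preparation on an Illumina HiSeq 2000, per the labels' protocols. The deposited table gives raw read counts, unnormalized whole numbers, in 22946 rows named by gene symbol, and the authors used CASAVA, TopHat2, HTSeq, DESeq and build mm9, per the submitters' processing notes. Versions, roles and strand use are not stated there, so reads of overlapping, antisense or near-identical genes cannot be told apart. In 374 rows several symbols are joined, and 5826 rows were at 0 in every library.

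The analysis used edgeR 4.0.16 (R 4.3.3). The edgeR function filterByExpr kept 12593 rows, TMM factors scaled the libraries, and a quasi-likelihood model with terms for genotype and diet was fitted to all 8 libraries (5 residual and on average 4.71 prior degrees of freedom, common biological coefficient of variation 11.6%). Tests were 2-sided, with Benjamini-Hochberg adjustment over all tested rows and calls at an adjusted p under 0.05. Each ± on a log2 change is an SE calculated back from the test statistic and is approximate. The diet in each genotype and the interaction came from a model of 4 group means (4 residual degrees of freedom). The procedure was tested on simulated counts. Alternatives were RLE and upper-quartile factors, other low-count filters, library sizes without haemoglobin and Mup rows, limma-voom (limma 3.58.1), DESeq2 1.42.0, a model without genotype, the mean of both genotypes in the group means model, and leaving out libraries.

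The 33 gene lists, the 11 marker lists and the genes named were chosen with earlier results of these data known, so list counts are descriptions. The rule names the 15 largest rises and 15 largest falls among called, non-overlapping genes (mean CPM 1 or more), the 10 called genes with the smallest adjusted p that were called in neither genotype alone, the 10 others with the smallest adjusted p, up to 4 called members of each list described (or up to 3 as values), the 5 genes with the smallest interaction p and a fixed panel. Further members of lists were named after their values were seen, and some genes are not reported here.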

Additional observations from a re-analysis of the deposited data

How the results depend on the processing

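No named gene that was called turned direction under any alternative run, nor did any of the 1252 called genes with 1 library left out. For the diet over both genotypes the count of 1252 (681 higher, 571 lower) was 671 (355 and 316) without the genotype term and 1976 (1030 and 946) without libraries 3 and 8. Leaving out each library in turn gave 659 to 1539 (324 to 809 higher, 317 to 730 lower). It stayed within 1.5 times under the other 8 alternatives, from 1195 with a mean of at least 1 CPM to 1358 with no low-count filter, and higher genes made up 48.4% to 54.8% of the calls over all settings. DESeq2 called 1327, 1147 of them among the 1252 (91.6%), and limma-voom 1264, 1223 among them (97.7%). Of the 1252, 1131 were also called without libraries 3 and 8. The interaction count of 0 was 8 with no low-count filter, 22 with DESeq2, 4 without libraries 3 and 8, and 0 to 14 with each library left out. The wild-type count of 578 was 98 to 896 with each library left out and 1319 without libraries 3 and 8, and the het-labelled count of 380 was 144 to 293 and 680 with no low-count filter. Of 168 named genes that were called, 129 were called whichever library was left out, and 29 of 219 named genes lost their call without the genotype term. No paired analysis was possible because no replicate number occurs in more than 1 group. Depth limits statements on genes of a few counts a library, such as Cidea and Pnpla5, and with 4 libraries a diet the smallest fold called was 1.15.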
